A study of Mus musculus with 8 samples.

Results

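The 10 genes described here, Isg15, Ifit1, Ifit2, Ifit3, Usp18, Adar, Ifi35, Eif2ak2, Mx1 and Samhd1, are commonly counted among the type I interferon-stimulated genes. They were chosen by name: every probe set that the array's annotation assigns to one of these symbols was taken, which gave 12 of the 12422 probe sets tested, 2 each for Adar and Samhd1 and 1 for each of the other 8 genes. The tested probe sets name 8251 genes in all. CD8+ dendritic cells purified from the spleens of female DBA/2J mice aged 60 days were cultured and their total RNA was hybridised to Affymetrix MG-U74Av2 arrays. The 4 groups were cells cultured for 16 hours with mouse interferon gamma (IFN-γ) at 200 U/ml, cells in medium alone for 16 hours, cells with IFN-γ for 4 hours and cells in medium alone for 4 hours, with 2 arrays each and 8 in all. All mice had first received Flt3-L, a growth factor that expands dendritic cells, 10 µg for 9 days. No group received a type I interferon, and no untreated, uncultured cells were analysed here. Values are log2 intensities of a probe set, and a difference between groups is a difference of mean log2 intensities.

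Type I interferons signal through the receptor encoded by Ifnar1 and Ifnar2, and their signal reaches genes through the interferon-stimulated response element in promoters. IFN-γ uses a receptor of its own, and its signal reaches genes through the gamma-activated site. Many genes answer to both kinds of interferon, and the products of the genes described here restrict viruses, bind or edit viral RNA, or limit the response itself.

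Promoters are shown because the genes differ in which of these elements' letters lie near their starts. RefSeq promoter windows, 250 bases before to 50 bases after the start of transcription on build GRCm38.p6, were found for 8 of the 10 genes in 11 windows; Usp18 and Mx1 had no entry. An interferon-stimulated response element motif, GAAA and GAAA with any 2 bases between them, was searched on both strands and lay in windows of 4 of these 8 genes, Isg15, Ifit1, Ifit3 and Eif2ak2. The motif occurs in 3.44% of all 32851 windows, or in 3.99% of genes. The motif TTCNNNGAA, a gamma-activated site that reads the same on both strands, lay in windows of 5 genes, Ifit2, Adar, Ifi35, Eif2ak2 and Samhd1, against 8.30% of all windows or 9.55% of genes. No Samhd1 or Ifit2 window held the first motif, and no Isg15, Ifit1 or Ifit3 window held the second. A match is a description of letters and not a site of binding, and a missing match says only that these letters are not in the window.

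Capitals mark the matches of either motif in the 6 windows below, those of the genes with the first motif and of Ifit2 and Samhd1. The windows are chr4:156200769-156201068 on the minus strand for Isg15, chr19:34640639-34640938 on the plus strand for Ifit1, chr19:34583279-34583578 on the plus strand for Ifit3, chr17:78882523-78882822 on the minus strand for Eif2ak2, chr19:34550444-34550743 on the plus strand for the first of the 2 Ifit2 starts, and chr2:157135047-157135346 on the minus strand for Samhd1.
Isg15: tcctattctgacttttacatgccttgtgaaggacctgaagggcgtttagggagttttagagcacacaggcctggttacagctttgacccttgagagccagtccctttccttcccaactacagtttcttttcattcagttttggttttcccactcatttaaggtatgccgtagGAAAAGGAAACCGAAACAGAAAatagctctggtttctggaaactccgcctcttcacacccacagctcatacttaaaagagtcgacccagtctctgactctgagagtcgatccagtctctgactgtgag
Ifit1: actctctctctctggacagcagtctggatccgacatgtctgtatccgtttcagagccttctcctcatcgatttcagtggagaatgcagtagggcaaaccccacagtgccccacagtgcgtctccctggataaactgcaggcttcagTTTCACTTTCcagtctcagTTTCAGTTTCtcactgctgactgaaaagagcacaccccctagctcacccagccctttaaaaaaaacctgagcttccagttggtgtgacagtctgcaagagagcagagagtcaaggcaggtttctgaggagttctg
Ifit3: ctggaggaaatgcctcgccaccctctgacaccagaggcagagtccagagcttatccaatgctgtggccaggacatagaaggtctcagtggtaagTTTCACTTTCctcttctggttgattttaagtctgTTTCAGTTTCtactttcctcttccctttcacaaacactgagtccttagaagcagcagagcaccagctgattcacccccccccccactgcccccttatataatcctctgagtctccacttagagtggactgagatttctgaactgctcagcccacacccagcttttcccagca
Eif2ak2: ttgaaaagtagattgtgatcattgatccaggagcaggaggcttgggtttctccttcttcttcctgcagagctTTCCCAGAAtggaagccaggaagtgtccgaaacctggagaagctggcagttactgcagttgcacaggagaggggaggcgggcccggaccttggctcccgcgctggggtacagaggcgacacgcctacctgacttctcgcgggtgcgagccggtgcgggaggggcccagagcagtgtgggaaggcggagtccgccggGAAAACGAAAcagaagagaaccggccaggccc
Ifit2: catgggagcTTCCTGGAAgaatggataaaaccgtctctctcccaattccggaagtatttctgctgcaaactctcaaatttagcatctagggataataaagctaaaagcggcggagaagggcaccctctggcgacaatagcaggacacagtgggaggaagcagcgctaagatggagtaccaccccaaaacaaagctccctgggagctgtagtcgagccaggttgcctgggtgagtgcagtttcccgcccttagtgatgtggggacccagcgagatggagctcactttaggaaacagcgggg
Samhd1: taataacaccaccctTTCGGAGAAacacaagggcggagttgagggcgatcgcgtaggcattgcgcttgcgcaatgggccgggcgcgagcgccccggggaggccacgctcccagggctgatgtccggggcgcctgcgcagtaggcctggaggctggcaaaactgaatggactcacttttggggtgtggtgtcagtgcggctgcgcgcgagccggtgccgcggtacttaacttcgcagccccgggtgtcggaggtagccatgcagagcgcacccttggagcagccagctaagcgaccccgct
In the Isg15 window 3 matches overlap in a single run that begins at position -78 from the start. Ifit1 holds 2 separate matches on the opposite strand, the nearest beginning at position -85, and Ifit3 holds 2, the nearest at position -122. In Eif2ak2 the match lies after the start, at position 19, and a gamma-activated site match lies at -178. The matches of Ifit2 and Samhd1 lie far from the start, at -241 and -235.

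The arrays were alike in overall level, with median intensities between 51.3 and 53.7. As a gauge of background, 15 control probe sets of the antisense strand had medians between 44.9 and 61.2. Cd8a, the marker of the sorted cells, read between 8.74 and 9.08 on the log2 scale and the dendritic cell markers Irf8, Flt3 and Batf3 read between 8.40 and 10.64, well above the antisense controls. Itgax read between 6.13 and 6.51, Xcr1 was near these controls, and Itgae, between 4.04 and 4.55, below them. Markers of other cell types were present, with summed intensities of 2075 to 3255 for 5 B cell genes, 1255 to 1466 for 5 T cell genes and 1430 to 1903 for 7 genes of plasmacytoid dendritic cells, a cell type known for making type I interferon. Fewer cells of a type and less RNA per cell cannot be told apart in such bulk RNA. Separate animals or cultures for the 2 arrays of a group are not named by the labels, and p-values here therefore cover the spread between arrays alone, which can be technical.

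In the cells given IFN-γ for 4 hours, 11 of the 12 probe sets were higher on both treated arrays than on both medium arrays, where 15.4% of all probe sets were, and none was lower on both, where 17.9% were. The 11 include Eif2ak2, which lay below the antisense controls. Samhd1, Ifit2, Ifit1, Adar and Isg15 had the largest differences, from 0.66 to 1.09, and the median over the 10 genes, each by its brightest probe set, was 0.63, against -0.01 over all probe sets. By limma with Benjamini-Hochberg adjustment over all probe sets, Samhd1 alone was called at an adjusted p under 0.05, that is 1 of 12 probe sets against 0.258% of all. The replicate numbers come from the sample titles, but no label says that arrays of equal number belong together. A block for that number was used because of the arrays' shared deviations. With it, 8 of 12 were called higher, from 7 genes, against 1.09% of all. None was called lower in either fit, against 0% of all and, with the block, 0.177% of all.

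**Figure D1:**
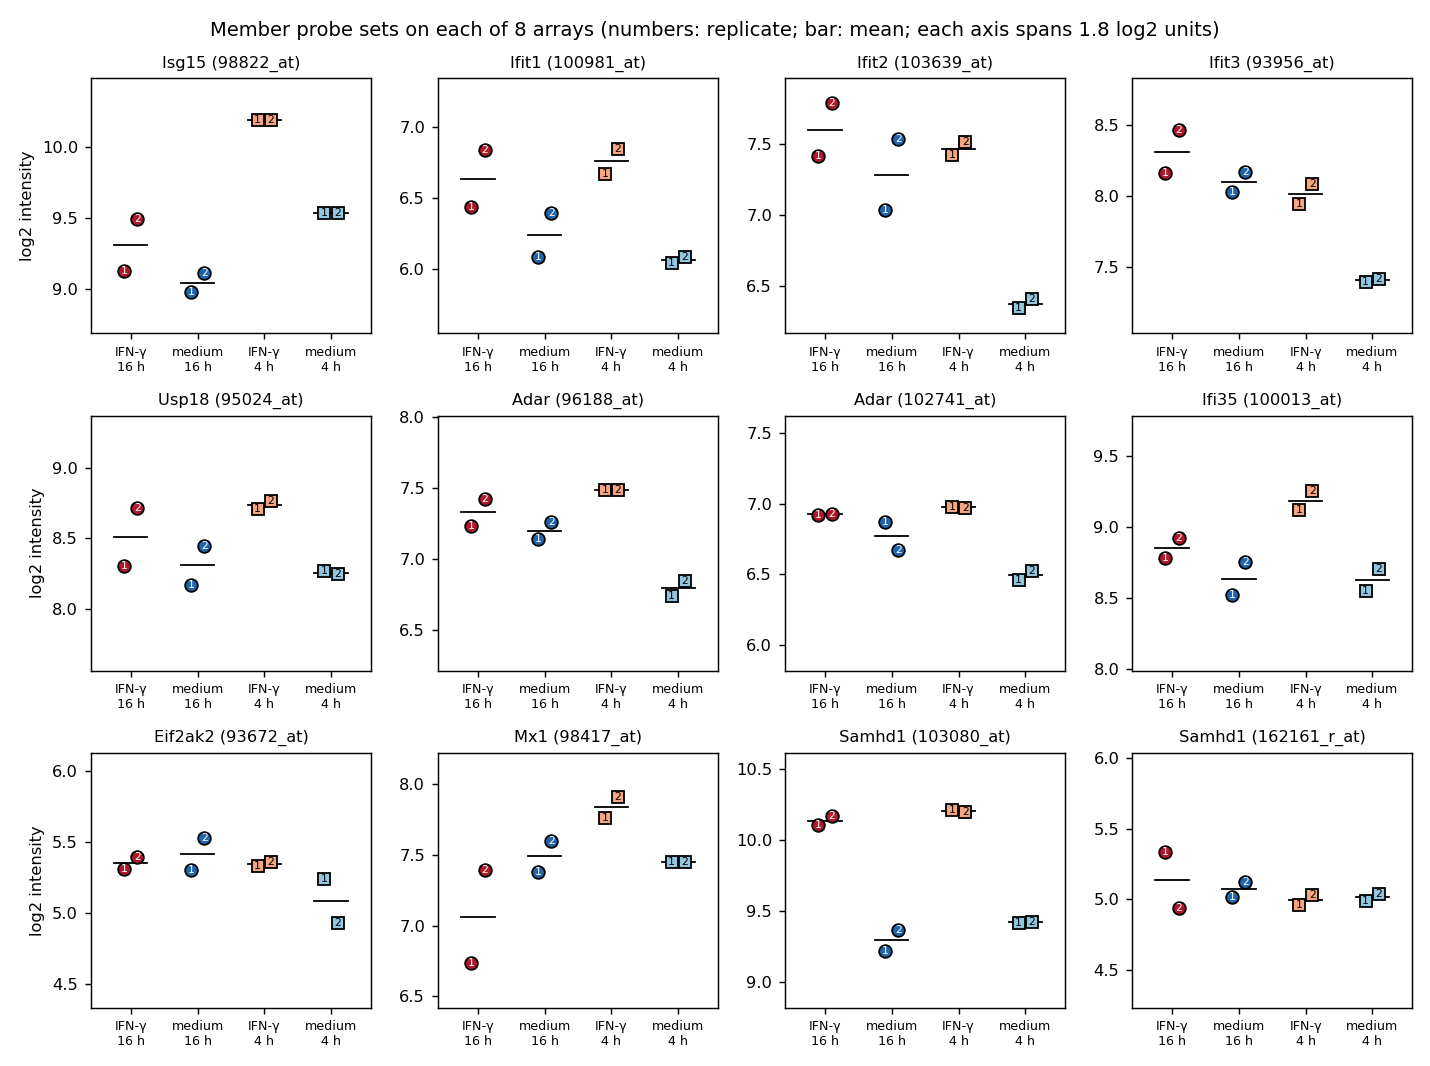
Log2 intensity of each of the 12 probe sets on the 8 arrays, with the groups along the horizontal axis; points carry the replicate number, bars are group means, and every panel spans the same range. At 4 hours the IFN-γ points lie above both medium points in 11 panels, and at 16 hours the bright Samhd1 probe set has the widest gap.

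Isg15 and Usp18 belong to one system. Isg15 encodes a ubiquitin-like modifier that is attached to other proteins, and Usp18 the protease that removes it and also dampens signalling from the type I interferon receptor. Isg15 read 10.19 on both IFN-γ arrays, against 9.53 and 9.54 on the medium arrays at 4 hours. The replicate arrays were thus nearly identical and the gap between groups was 0.66 (SE 0.14, limma adjusted p = 0.150, or 0.0180 with the block). Usp18 read 8.71 and 8.76 with IFN-γ, against 8.27 and 8.25 in medium. Its groups did not overlap either, but the difference of 0.48 (SE 0.15) passed in neither fit (limma adjusted p = 0.609, or 0.102 with the block).

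The Ifit genes encode proteins with tetratricopeptide repeats that bind viral RNA or cap structures and restrain translation. Ifit2 read 7.42 and 7.51 with IFN-γ, against 6.34 and 6.41 in medium. It had the largest difference of the 12 probe sets at 4 hours, 1.09 (SE 0.18, limma adjusted p = 0.0542, or 0.00152 with the block), a 2.14-fold higher intensity. Ifit1 read 6.67 and 6.85 with IFN-γ, against 6.04 and 6.08 in medium, a difference of 0.70 (SE 0.16, limma adjusted p = 0.215, or 0.0110 with the block). Ifit1 was dim, with linear intensities of 65.8 and 67.9 in medium beside antisense medians of 55.1 and 48.1, so the size of its difference is uncertain. Ifit3 read 7.94 and 8.09 with IFN-γ, against 7.40 and 7.41 in medium, a difference of 0.61 (SE 0.13, limma adjusted p = 0.172, or 0.0147 with the block). Closely related copies of Ifit1 and Ifit3 lie in the same mouse gene cluster, and the probe sets may read more than 1 of them.

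Adar and Eif2ak2 encode proteins that bind double-stranded RNA: ADAR1 edits adenosine to inosine in it, and the kinase PKR, the product of Eif2ak2, stops translation when it meets it. The brighter Adar probe set read 7.49 and 7.49 with IFN-γ, against 6.73 and 6.85 in medium. That difference of 0.70 (SE 0.12) had a limma adjusted p of 0.0562, or 0.00451 with the block. The dimmer one read 6.98 and 6.97, against 6.46 and 6.52 in medium, a difference of 0.48 (SE 0.11, limma adjusted p = 0.208, or 0.0459 with the block). Both Adar probe sets thus pointed the same way. Eif2ak2 read 5.33 and 5.36 with IFN-γ, against 5.24 and 4.93 in medium, and lay below the antisense controls on all 8 arrays, so whether it changed cannot be read.

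Ifi35, Mx1 and Samhd1 complete the group. Ifi35, an interferon-induced leucine zipper protein, read 9.12 and 9.25 with IFN-γ, against 8.55 and 8.70 in medium, a difference of 0.56 (SE 0.13, limma adjusted p = 0.205, or 0.0132 with the block). Mx1, an antiviral GTPase for which most inbred laboratory mouse strains carry a defective allele, read 7.76 and 7.91 with IFN-γ, against 7.45 on both medium arrays. The difference of 0.39 (SE 0.19) passed in neither fit (limma adjusted p = 0.9999, or 0.416 with the block). Samhd1 encodes a dNTP hydrolase that limits reverse transcription in myeloid cells, and its bright probe set read 10.22 and 10.20 with IFN-γ, against 9.42 and 9.43 in medium. It rose by 0.79 (SE 0.11, limma adjusted p = 0.0188). The call was lost without any 1 of the 4 arrays at 4 hours (adjusted p from 0.265 to 0.299), while the difference stayed between 0.78 and 0.79. The dim Samhd1 probe set, below the antisense controls on all 8 arrays, read 4.96 and 5.03 with IFN-γ, against 4.99 and 5.04 in medium, and shows no level from which a change could be read.

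**Figure D2:**
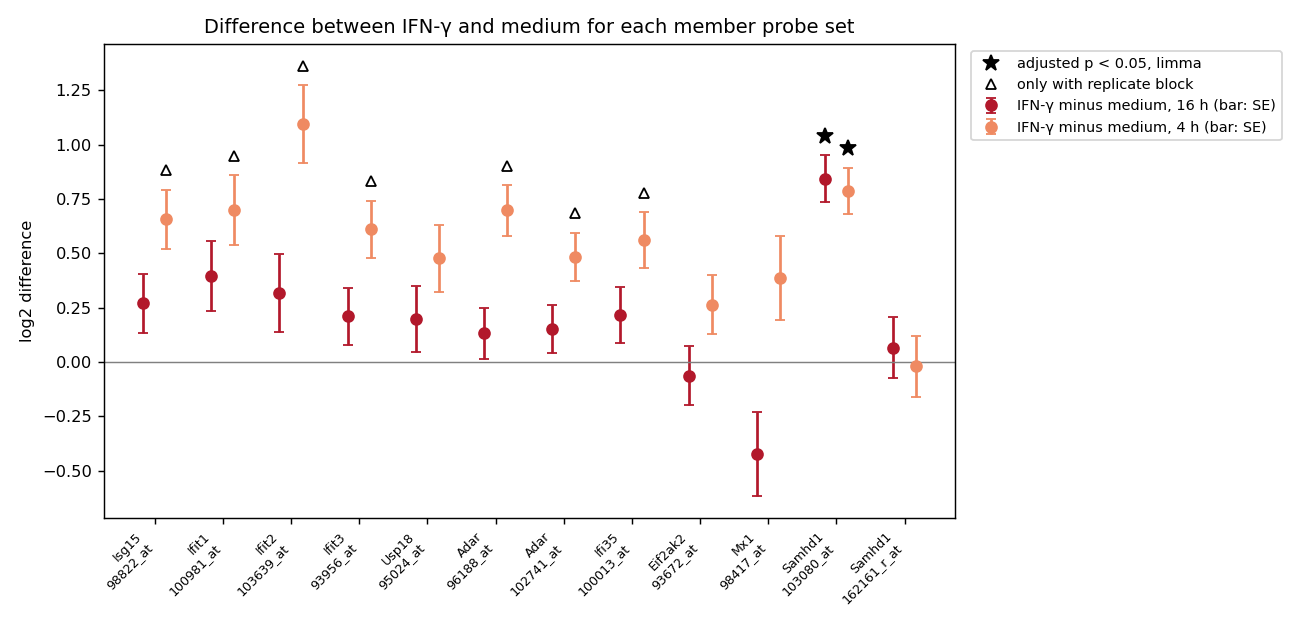
Log2 difference between IFN-γ and medium for each probe set at 16 hours (dark) and 4 hours (light), with the standard error from limma as bars; stars mark adjusted p under 0.05 and open triangles those that passed only with the replicate block. The bright Samhd1 probe set is called at both times, 7 further probe sets carry a triangle at 4 hours, and none carries one at 16 hours.

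Several other measures moved with the groups at 4 hours. RNA integrity and labelling can be read from the Actb probe sets at the 3' and 5' ends, whose ratio was 1.47 and 1.65 with IFN-γ, against 2.04 and 2.20 in medium. The summed intensity of 12 macrophage markers was 1340 and 1342 with IFN-γ, against 1775 and 1813 in medium. Of these 12, 6 were higher on average with IFN-γ, the median difference was -0.05, and 2 were called lower with the block. Lyz2, the brightest of them, read 8.67 and 8.69 with IFN-γ, against 9.45 and 9.56 in medium. The 5 B cell markers summed to 2191 and 2075, against 2851 and 2467, and all 5 were lower on average. The 7 plasmacytoid dendritic cell markers summed to 1430 and 1567, against 1687 and 1676. The 9 markers of CD8+ dendritic cells went the other way, with sums of 3750 and 3909, against 3308 and 3443. Of these 9, 5 were higher on average with IFN-γ, and 1 was called higher with the block. Irf8, the brightest of them, read 10.64 on both IFN-γ arrays, against 10.03 on both medium arrays. The part of these measures in the differences of the 10 genes was not tested.

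At 16 hours Samhd1 was called and the other 9 genes were not, with or without the block. Of the 12 probe sets, 1 was called higher against 0.161% of all, none was called lower, against 0.0966%, and 5 were higher on both IFN-γ arrays than on both medium arrays, against 9.1% of all, while none was lower on both, against 9.85%. With the block the shares of all called were 0.411% higher and 0.435% lower. The median over the 10 genes was 0.21, against 0.00 over all probe sets. Samhd1 read 10.11 and 10.17 with IFN-γ, against 9.22 and 9.37 in medium, and rose by 0.84 (SE 0.11, limma adjusted p = 0.0166). The difference lay between 0.77 and 0.92 whichever array was left out, but the call was held only without array 1 of IFN-γ at 16 hours (adjusted p = 0.0280) and was lost without any other array (0.0502 to 0.163), without both 16-hour arrays of number 1 (0.0807) and when only the 4 arrays of this time were fitted (0.275).

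The Ifit genes were little apart at 16 hours. Ifit2 read 7.41 and 7.79 with IFN-γ, against 7.03 and 7.54 in medium, a difference of 0.32 (SE 0.18, limma adjusted p = 0.9998). Ifit3 read 8.16 and 8.46, against 8.03 and 8.17 in medium, a difference of 0.21 (SE 0.13). In both genes array 1 with IFN-γ lay below array 2 in medium, so the groups overlapped. Ifit1 read 6.43 and 6.84, against 6.08 and 6.40 in medium; its groups did not overlap, and the difference of 0.40 (SE 0.16) was not called (limma adjusted p = 0.9998, or 0.211 with the block). Single arrays decided these sizes: with 1 array left out in turn the difference ran between 0.062 and 0.57 for Ifit2, 0.058 and 0.36 for Ifit3, and 0.19 and 0.60 for Ifit1.

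Isg15 read 9.13 and 9.49 with IFN-γ at 16 hours, against 8.97 and 9.11 in medium, a difference of 0.27 (SE 0.14) that was not called and lay between 0.085 and 0.45 with 1 array left out in turn. Usp18 read 8.30 and 8.71, against 8.17 and 8.45, with overlap. Ifi35 read 8.78 and 8.92, against 8.52 and 8.75, without overlap and with a difference of 0.22 (SE 0.13), or 0.10 to 0.33 with 1 array left out. The brighter Adar probe set read 7.23 and 7.42, against 7.14 and 7.26, a difference of 0.13 (SE 0.12), or 0.037 to 0.22 with 1 array left out, and the dimmer 6.92 and 6.93, against 6.87 and 6.67. Eif2ak2 at 5.31 and 5.39, against 5.30 and 5.53, and the dim Samhd1 probe set at 5.33 and 4.94, against 5.02 and 5.12, lay below the antisense controls here too. Of the probe sets above these controls, Mx1 alone was lower on average with IFN-γ, at 6.73 and 7.39 with IFN-γ, against 7.38 and 7.60 in medium. Its difference of -0.43 (SE 0.19) was not called (limma adjusted p = 0.9998, or 0.396 with the block), and without array 1 of IFN-γ at 16 hours it was -0.10, or -0.75 without array 2.

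For these genes the arrays of number 1 mostly read lower. The share of all probe sets that did so was not counted, so this is not shown to be particular to these genes. At 16 hours, on 11 of the 12 probe sets array 1 was below array 2 with IFN-γ, by 0.22 on average, and likewise on 11 of 12 in medium, by 0.19 on average. At 4 hours array 1 was below array 2 on 10 of 12 in each group, with a mean gap of 0.07 with IFN-γ and 0.02 in medium. When each IFN-γ array was set against the medium array of its own number, 20 of 24 such differences were above 0 at 16 hours and 22 of 24 at 4 hours. The 24 are the 12 probe sets on 2 pairs of arrays, and include Eif2ak2 and the dim Samhd1 probe set. At 4 hours the 22 only repeat the 11 probe sets whose groups did not overlap. The share over all probe sets was not counted, so nothing is drawn from these counts. At 16 hours the 12 macrophage markers summed to 3329 and 4125 with IFN-γ, against 4563 and 5372 in medium. These sums differed between the numbers and were also lower on both IFN-γ arrays than on both medium arrays. Of the 12 markers 2 were higher on average with IFN-γ, and 3 were called lower with the block. The part of these markers in the 16-hour differences of Samhd1, Mx1 and the other genes was not tested.

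The effect of IFN-γ at 16 hours minus that at 4 hours was below 0 for 9 of the 10 genes. The 9 include Eif2ak2, which lay below the antisense controls. Of all probe sets 51.3% were above 0. The median over the 10 genes was -0.37, against 0.00 over all probe sets. Limma called 0 of the 12 probe sets and 0 of all 12422, and 353 of all had an unadjusted p under 0.05, with 3 of the 12 among them. With the block, 0 of the 12 were called and 0.242% of all. Of the 3 with an unadjusted p under 0.05, Mx1 was at -0.81 (SE 0.27, limma adjusted p = 0.9998, or 0.186 with the block). Ifit2 was at -0.78 (SE 0.25, limma adjusted p = 0.9998, or 0.134 with the block). The brighter Adar probe set was at -0.57 (SE 0.16, limma adjusted p = 0.876, or 0.163 with the block). Without array 1 of IFN-γ at 16 hours, Mx1 was at -0.48 and Ifit2 at -0.59, and without array 2 of medium at 16 hours Ifit2 was at -0.53. For Samhd1 it was 0.06 (SE 0.15), with effects of 0.84 at 16 hours and 0.79 at 4 hours.

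Over both times together, the additive fit called Samhd1 (0.81, SE 0.07, limma adjusted p = 0.000260), which is 1 of 12 probe sets against 0.362% of all called higher and 0.169% lower. With the block it also called Isg15 (0.46), Ifit1 (0.55), Ifit2 (0.71) and Ifi35 (0.39). Their limma adjusted p were 0.0375, 0.00754, 0.0349 and 0.0391 with the block, and 0.155, 0.0979, 0.184 and 0.252 without it. With the block that is 5 of 12, against 0.708% of all called higher and 0.555% lower. Mx1 differed by -0.02 in this fit.

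Time in culture moved some of these genes without IFN-γ. Ifit2 read 7.03 and 7.54 in medium at 16 hours, against 6.34 and 6.41 at 4 hours, and rose by 0.91 (SE 0.18, limma adjusted p = 0.0256). Ifit3 read 8.03 and 8.17 at 16 hours, against 7.40 and 7.41 at 4 hours, and rose by 0.70 (SE 0.13, limma adjusted p = 0.0215). The Ifit3 call was lost without any 1 of the 4 medium arrays (adjusted p from 0.0706 to 0.178). The Ifit2 call was lost without either 4-hour medium array (0.196 and 0.153), when array 2 of medium at 16 hours was dropped (a difference of 0.66, adjusted p = 0.116) and without either IFN-γ array at 4 hours (0.0545). These 2 of 12 probe sets stand against 1.71% of all called higher with time in medium, and none was called lower, against 2.57%. By array values 5 of 12 were higher on both arrays at 16 hours, against 30.8% of all, and 2 were lower on both, against 20.8%. The 5 include Eif2ak2, which lay below the antisense controls. With the block the brighter Adar probe set, 7.14 and 7.26 against 6.73 and 6.85, was also called higher (0.41, SE 0.09, adjusted p = 0.0160). Without the block its SE was 0.12 and its adjusted p 0.0942. With it, 3 of 12 were called higher, against 4.52% of all.

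Macrophage markers moved with time as well: the 12 summed to 4563 and 5372 in medium at 16 hours, against 1775 and 1813 at 4 hours, with 10 called higher and 1 lower. The 3 erythroid markers summed to 221 and 208, against 425 and 420, with 2 called lower. The 9 markers of CD8+ dendritic cells summed to 2737 and 2848, against 3308 and 3443. Of these 9, 3 rose on average and 1 was called lower, or 4 with the block. The Actb ratio was 1.63 and 1.57 at 16 hours, against 2.04 and 2.20 at 4 hours. The part of these in the changes of Ifit2 and Ifit3 was not tested.

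Isg15 went the other way. In medium it read 8.97 and 9.11 at 16 hours, against 9.53 and 9.54 at 4 hours, a difference of -0.49 (SE 0.14, limma adjusted p = 0.0830, or 0.0147 with the block, where 8.09% of all probe sets were called lower). Under IFN-γ, Isg15 had values of 9.13 and 9.49 at 16 hours, against 10.19 on both arrays at 4 hours, and fell by 0.88 (SE 0.14, limma adjusted p = 0.0138), the 1 call among 12 probe sets, where 1.3% of all were called lower and 0.821% higher. Without either IFN-γ array at 4 hours this call was lost (adjusted p of 0.138 and 0.143). Isg15 was thus highest with IFN-γ at 4 hours, then in medium at 4 hours, and lowest at 16 hours, where the 2 groups differed by less than the gap between the IFN-γ arrays.

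With IFN-γ, Ifit2 and Ifit3 showed no called change with time. Ifit2 read 7.41 and 7.79 at 16 hours, against 7.42 and 7.51 at 4 hours, and Ifit3 8.16 and 8.46, against 7.94 and 8.09. Both genes were lowest in medium at 4 hours, and the other 3 groups of Ifit2 overlapped. Mx1 read 6.73 and 7.39 with IFN-γ at 16 hours, against 7.76 and 7.91 at 4 hours, a difference of -0.77 (SE 0.19, limma adjusted p = 0.0834, or 0.00683 with the block). Without array 1 of IFN-γ at 16 hours it was -0.44 (adjusted p = 0.219), and without array 2 it was -1.10 (adjusted p = 0.00601). Ifi35 was lower by the same comparison with the block (-0.33, SE 0.09, adjusted p = 0.0386, or SE 0.13 and adjusted p = 0.265 without it). That makes 3 of 12 with the block, against 6.94% of all called lower, and 0 higher, against 3.2%. By array values 1 of 12 was higher on both arrays at 16 hours, against 21.6% of all, and 6 were lower on both, against 17.7%. In medium, Mx1 and Ifi35 differed by 0.04 and 0.01 between the times. Samhd1 differed by -0.07 with IFN-γ and by -0.13 in medium, so its 4 groups fell into a high pair with IFN-γ and a low pair in medium. Cell markers also moved with time under IFN-γ. The 12 macrophage markers summed to 3329 and 4125 at 16 hours, against 1340 and 1342 at 4 hours, with 8 called higher and 1 lower. The 5 B cell markers summed to 3046 and 3255, against 2191 and 2075, with 1 called higher and all 5 with the block. The 9 markers of CD8+ dendritic cells summed to 3023 and 3392, against 3750 and 3909. Of these 9, 4 rose on average and 1 was called lower, or 3 lower and 1 higher with the block. Irf8, the brightest of them, was itself higher with IFN-γ, at 10.36 and 10.41 against 9.60 and 9.53 in medium at 16 hours. The part of these markers in the differences of Isg15, Mx1 and Ifi35 was not tested. Medium at 4 hours serves in the comparison with IFN-γ and in that with time, so these differences are not independent of each other.

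**Figure D3:**
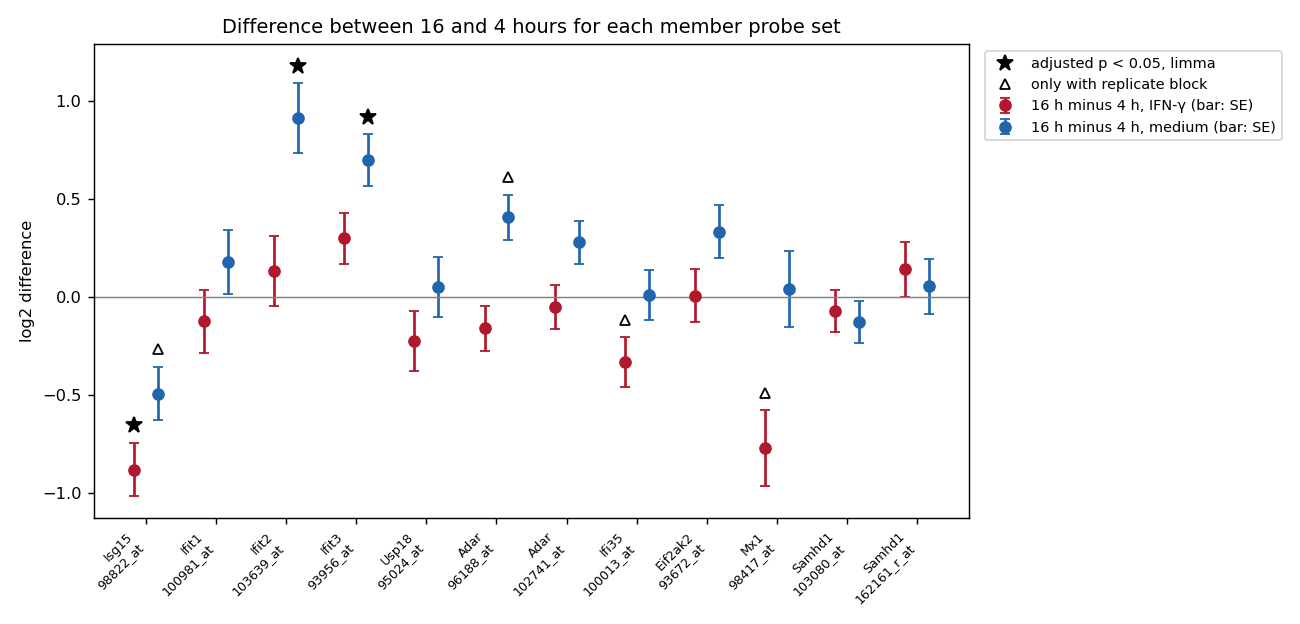
Log2 difference between 16 and 4 hours for each probe set, with IFN-γ (red) and in medium (blue), with the standard error from limma as bars; stars mark adjusted p under 0.05 and open triangles those that passed only with the replicate block. Ifit2 and Ifit3 are called higher in medium, and Isg15 is called lower with IFN-γ.

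Other genes of the same pathway were read from lists. Of 62 other interferon-stimulated genes 31 had a probe set with 1 gene name. By their mean, 6 of these 31 lay below the antisense controls and enter the counts and medians below. At 4 hours 26 of the 31 were higher on average with IFN-γ, against 47.2% of all probe sets. Limma called 1 of the 31 higher, Trim21, an antibody receptor and ubiquitin ligase of the cytosol. Trim21 read 7.69 and 7.73 with IFN-γ, against 6.91 and 6.92 in medium (0.79, SE 0.11, limma adjusted p = 0.0188). This 1 of 31 stands against 0.258% of all probe sets. With the block 5 passed, against 1.09% of all, and none was lower. Among them were Pml, the organiser of nuclear bodies (0.68, adjusted p = 0.0127, or 0.0765 without it), Ifi204, a DNA-binding protein of the interferon-inducible p200 family (0.86, 0.00687, or 0.106 without it), and Daxx, a histone chaperone of those nuclear bodies (0.48, 0.0317, or 0.181 without it). The Ifi204 probe set is of the kind that can match several members of its family. The median of the 31 was 0.22 at 4 hours and 0.12 at 16 hours, when Pml alone was called, with the block (0.63, adjusted p = 0.0217, or 0.112 without it).

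In medium, 2 of the 31 were called higher with time, against 1.71% of all probe sets. They were Ifi204 (1.02, SE 0.16, limma adjusted p = 0.0105) and the membrane antiviral gene Ifitm3 (0.72, SE 0.12, limma adjusted p = 0.0137). With the block 6 passed, against 4.52% of all. Among them were Trim21 (0.40, adjusted p = 0.0160, or 0.0796 without it) and Lgals3bp, a secreted glycoprotein (0.40, adjusted p = 0.0282, or 0.0995 without it). As with Ifit2, the differences of Ifi204 and Trim21 between IFN-γ and medium at 4 hours therefore stand beside a difference in medium alone over time. For Trim21 that difference over time was called only with the block.

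Of 23 listed type I interferon ligands, receptor chains and signalling genes 17 were measured, and 5 of them, by their mean, lay below the antisense controls. Irf1, a transcription factor, and Socs1, which blocks JAK kinases, rose at both times, by 0.96 and 1.51 at 16 hours (limma adjusted p of 0.00750 and 0.0137) and by 0.84 and 1.39 at 4 hours (0.0123 and 0.0141). The other 15 did not pass in either fit. Ifnar1 read 7.60 and 7.70 with IFN-γ, against 7.80 and 7.82 in medium at 4 hours, and Ifnar2 7.20 and 7.38, against 7.54 and 7.57. Irf7, which drives type I interferon genes, differed by 0.19 and Irf9 by 0.12 at 4 hours. Ifnb1, which encodes interferon beta, lay below the antisense controls on all 8 arrays. None of the 17 was called with time in medium by limma, and Irf1 was lower with the block (-0.40, adjusted p = 0.0130, or 0.0603 without it).

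The 9 measured IFN-γ-inducible GTPases, of the families encoded by the Irg and Gbp genes, are set beside the 10 genes for scale. All 9 were higher on average with IFN-γ at both times, against 47.2% of all probe sets at 4 hours and 48.8% at 16 hours. At 4 hours 7 of the 9 were called higher, against 0.258% of all, and all 9 with the block, against 1.09%. Among the 9, Iigp1 was higher by 2.63, Irgm2 by 1.79 and Igtp by 1.63. At 16 hours 5 of the 9 were called higher, against 0.161% of all, and all 9 with the block, against 0.411%. Their differences at 4 hours ran from 1.28 to 2.63, where those of the 9 genes above the antisense controls, that is without Eif2ak2, ran from 0.39 to 1.09. At 16 hours they ran from 1.02 to 2.08, against -0.43 to 0.84. The ranges did not overlap at either time, and the difference between the lists was not tested.

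**Figure D4:**
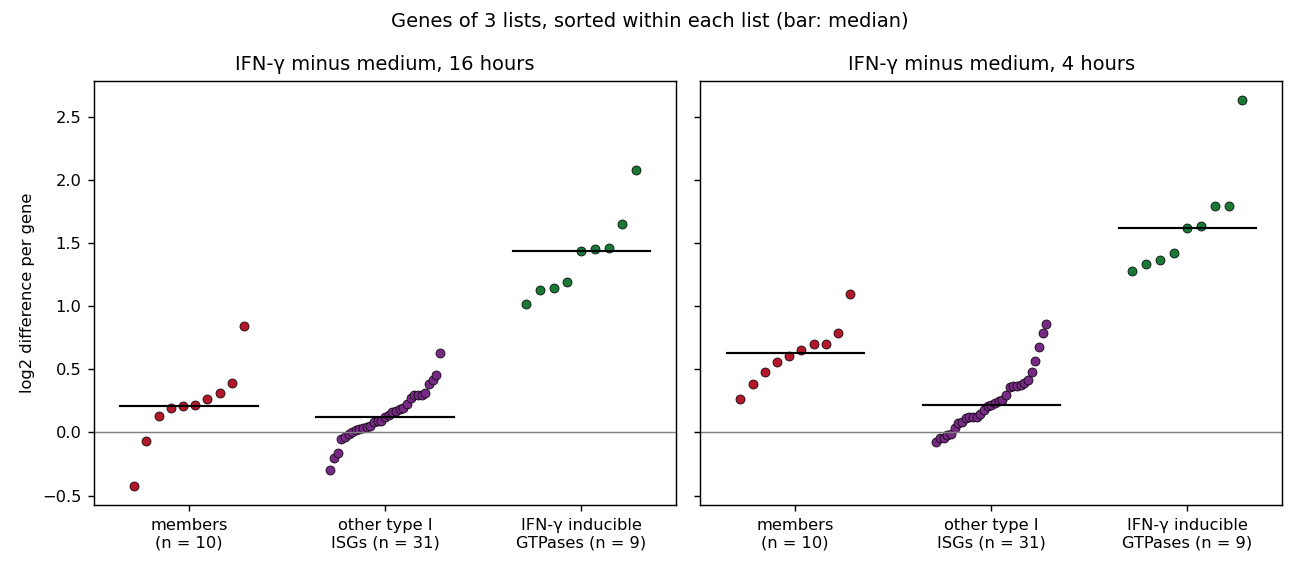
Log2 difference between IFN-γ and medium at 16 hours (left) and 4 hours (right) for each gene of 3 lists, sorted within a list, with the median as a bar. The 10 genes have medians of 0.21 and 0.63, the 31 other interferon-stimulated genes 0.12 and 0.22, and the 9 GTPases 1.44 and 1.62. Among the 31, 6 lay by their mean below the antisense controls, as did Eif2ak2 among the 10.

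The genes whose pattern was most like that of the group were found by Pearson's r with the mean centred profile of the 10 probe sets above the antisense controls, over the 8 arrays. They were 2610507B11Rik (r = 0.98), Irgm1 (0.97), Trim30a (0.96), Irgm2 (0.95), Klrk1 (0.93) and Ifi47 (0.93). The arrays share the 4 groups and the replicate numbers, which any such r contains. Within the group the same r was 0.98 for Ifit1, 0.95 for Usp18 and 0.94 for the brighter Adar probe set, and 0.63 for Isg15 and 0.42 for Mx1. These members enter the profile themselves.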

How the data were processed

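Per the labels, total RNA was turned into biotinylated target and hybridised to 8 arrays. The submitters' processing notes name RMA, for which the sources used here give no version or settings. Each deposited value is the authors' intensity for 1 probe set on a linear scale, from 2.65 to 12523, and log2 was taken of it with no pseudocount and no second normalization. The array's 66 control probe sets, of 12488, did not enter the tests. Symbols came from the platform annotation (10833 probe sets with 1 symbol, 396 with several, 1193 unnamed here). In counts of genes each gene is represented by its brightest probe set.

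Limma 3.58.1 in R 4.3.3 was fitted to the 4 group means over all 8 arrays (two-sided, Benjamini-Hochberg over 12422 probe sets, called at 0.05), after the code was checked on simulated data with known changes. An additive fit of time and treatment gave the IFN-γ effect over both times. The differences between replicate 2 and 1 correlated between groups with r from 0.367 to 0.740 in all 6 pairs of groups. The data, and no label, are the basis of this pairing, and results of a fit blocked on that number stand beside those whose call it changes. That fit has 1 replicate term for both times, though r was 0.587 and 0.740 within a time and 0.367 to 0.480 between times.

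The alternatives changed the scaling (quantile or median), removed the dimmest 40% of probe sets, used limma's trended and robust prior or the block, set the threshold at 0.01, fitted only the 4 arrays compared, or left out each array. Leaving out both 16-hour arrays of number 1 was added after seeing the data. A group left with 1 array was assumed to vary like the others. Named genes of the lists are up to 4 in each direction with the smallest p among those called without or with the block. The genes, lists and tests were chosen with earlier results of these data known.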

Additional observations from a re-analysis of the deposited data

Results flagged for a closer look

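Mx1 stands out because its effect pointed opposite ways at the 2 times in every pair of same-numbered arrays. IFN-γ minus medium was -0.64 and -0.21 at 16 hours, and 0.32 and 0.46 at 4 hours. The difference of effects, 16 hours minus 4 hours, was -0.81 (SE 0.27), with a limma adjusted p of 0.9998, or 0.186 with the replicate block. Over the alternatives it ran from -1.14 to -0.48, the smallest without array 1 of IFN-γ at 16 hours, which read 6.73 where the other array of its group read 7.39.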

How the results depend on the processing

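With the replicate block the calls among the 12 probe sets were 8 at 4 hours (157 of all probe sets), 1 at 16 hours (105), 0 for the difference of effects (30), 4 with time in medium (1567), 3 with time under IFN-γ (1259) and 5 in the additive fit (157), against 1 (32), 1 (32), 0 (0), 2 (531), 1 (263) and 1 (66) without it. At 4 hours quantile normalization gave 4, leaving out the dimmest probe sets 2, the trended and robust prior 3 and a fit of the 4 arrays compared 6 (93 of all). For the first 3 of these settings the count over all probe sets is not given here. The same holds for the additive fit without both 16-hour arrays of number 1. A gain among the 12 can therefore not be set against one over all there. At an adjusted p under 0.01 the counts were 0 at 4 hours (14 of all), 0 at 16 hours (9), 0 with time in medium (144), 0 with time under IFN-γ (66), and 35 of all in the additive fit. A fit of the 4 arrays compared gave 0 at 16 hours (7 of all) and 120 of all with time under IFN-γ. Without both 16-hour arrays of number 1 the count was 0 at 16 hours and 4 in the additive fit. With 1 array left out, the count among the 12 ran from 0 to 4 at 4 hours (8 to 67 of all), 0 to 1 at 16 hours (10 to 38), 0 to 4 with time in medium (73 to 923), 0 to 2 with time under IFN-γ (27 to 708), 1 to 5 in the additive fit (36 to 77) and 0 for the difference of effects (0). Over all probe sets the standard deviation of the difference between the 2 arrays of a group was 0.31 with IFN-γ at 16 hours. In the other groups it was 0.17 to 0.24. The cause of these shifts was not tested. The shorter motif GAAANNGAA lay in windows of 5 genes in place of 4, and in 9.76% of all genes in place of 3.99%.

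None of the differences that turned sign was called. Leaving out 1 array in turn gave -0.058 to 0.016 for the dim Samhd1 probe set at 4 hours, and at 16 hours -0.0063 to 0.40 for Usp18, -0.18 to 0.049 for Eif2ak2 and -0.13 to 0.26 for the dim Samhd1 probe set. For the difference of effects it gave -0.016 to 0.13 for Samhd1 and -0.11 to 0.28 for its dim probe set. With time in medium it gave -0.085 to 0.19 for Usp18, -0.11 to 0.13 for Ifi35 and -0.072 to 0.15 for Mx1. With time under IFN-γ it gave -0.32 to 0.078 for Ifit1, -0.054 to 0.32 for Ifit2, -0.037 to 0.048 for Eif2ak2 and -0.056 to 0.34 for the dim Samhd1 probe set. Quantile normalization turned Samhd1 to -0.0038 for the difference of effects, 0.0091 with time in medium and 0.0053 with time under IFN-γ, its dim probe set to -0.012 with time in medium, and Eif2ak2 to -0.024 with time under IFN-γ. Median centring turned Eif2ak2 to -0.021 there, and Ifi35 to -0.033 and Mx1 to -0.0036 with time in medium. Without both 16-hour arrays of number 1 the dim Samhd1 probe set turned to -0.19 at 16 hours, -0.16 for the difference of effects and -0.056 with time under IFN-γ, and Ifit1 to 0.078 with time under IFN-γ. The number of arrays limits the precision, and Eif2ak2 and the dim Samhd1 probe set lay below the antisense controls.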

Other observations

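The enzymes that attach the Isg15 product to other proteins were chosen for description after their values were seen. Uba7, the activating enzyme, read 9.14 and 9.28 with IFN-γ, against 8.74 and 8.77 in medium at 16 hours, and 9.26 and 9.16, against 8.87 and 8.81 at 4 hours. Over both times it rose by 0.41 (SE 0.07, limma adjusted p = 0.0379 in the additive fit, where 0.362% of all probe sets were called higher). Ube2l6, the conjugating enzyme, read 7.22 and 7.31, against 6.92 and 7.02 at 16 hours, and 7.32 and 7.61, against 6.98 and 7.17 at 4 hours. Its difference over both times was 0.34 (SE 0.09, limma adjusted p = 0.252, or 0.0271 with the block, where 0.708% of all were called higher). Uba7 and Ube2l6 were each higher on both IFN-γ arrays than on both medium arrays at either time, as were 9.1% of all probe sets at 16 hours and 15.4% at 4 hours. The difference of their effects, 16 hours minus 4 hours, was 0.08 for Uba7 and -0.10 for Ube2l6.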
